A study of Rattus norvegicus with 16 samples.

Results

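Loss of estrogen receptor alpha was examined in the right ventricle of rats that had no pressure load. The comparison set 4 KO SHAM libraries against 4 WT SHAM libraries, 8 of the 16 libraries of the study, chosen by their group labels. KO SHAM rats were ERalpha -/- females with sham surgery, and WT SHAM rats were wild-type females with sham surgery. All were Sprague Dawley rats, 20 to 21 weeks old, and RNA came from 10 mg of right ventricle. The other 8 libraries, KO PAB and WT PAB with 4 each, came from rats of the same genotypes with 10 weeks of pulmonary artery banding, which raises the pressure that the right ventricle pumps against. They share no library with the sham comparison and are used here for a second comparison of the genotypes. Both comparisons come from the same fit of all 16 libraries. The scaling, the gene filter and the estimate of each gene's spread are shared, so their p-values are not independent. The labels do not say how the receptor gene was mutated, whether other tissues carried the mutation, or whether the libraries of a group came from separate animals, so the p-values reflect variation among the libraries, part of which may be technical.

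Estrogen receptor alpha, the product of Esr1, is a nuclear receptor. Bound by estrogen, it attaches to estrogen response elements in DNA or to other transcription factors, and recruits coregulators that raise or lower transcription. In the heart it is found at low levels in cardiomyocytes, fibroblasts and vascular cells, and work on pulmonary hypertension has connected it with BMP receptor and apelin signalling.

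Total counts were 23270079 to 34718633 in the KO SHAM libraries and 22168110 to 27598074 in the WT SHAM libraries. Mitochondrially encoded transcripts took 37.98 ± 3.87% of the counts in KO SHAM and 36.86 ± 2.75% in WT SHAM (SD, n = 4 each). The difference of 1.12 percentage points did not exceed the spread between libraries (two-sided exact permutation test over libraries, p = 0.657, where 0.0286 is the smallest p that 4 against 4 allows). Cardiac identity was plain in every library. Levels are given in CPM, counts per 1000000 of the library's scaled total. Myh6, the alpha myosin heavy chain, had 16090 to 18630 CPM in KO SHAM and 11600 to 23410 CPM in WT SHAM.

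3 sham libraries stood apart from the other 5, and they did not follow genotype: KO SHAM 4, WT SHAM 2 and WT SHAM 3. On the first principal component, which took 63.5% of the variance, they scored 32.63, 56.75 and 17.01, while the other 5 libraries scored -26.89 to -15.44. Adipoq, the adipocyte hormone adiponectin, had 11.1 to 45.6 CPM in these 3 libraries and 0 to 0.0461 CPM in the other 5. Plin1, which coats the fat droplet of adipocytes, had 2.80 to 11.2 CPM in the 3 and 0 in the 5. Msln, a marker of the mesothelium that covers the heart, had 20.5 to 43.9 CPM in the 3 and 0.164 to 7.90 CPM in the 5, and the smooth muscle myosin Myh11 had 291 to 1030 CPM against 34.8 to 107 CPM. Since KO SHAM holds 1 such library and WT SHAM holds 2, values without all 3 are given beside genes and lists that changed sign or moved by over 1.5 times. In pieces of tissue, fewer cells of a type and less RNA per cell cannot be told apart.

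**Figure D1:**
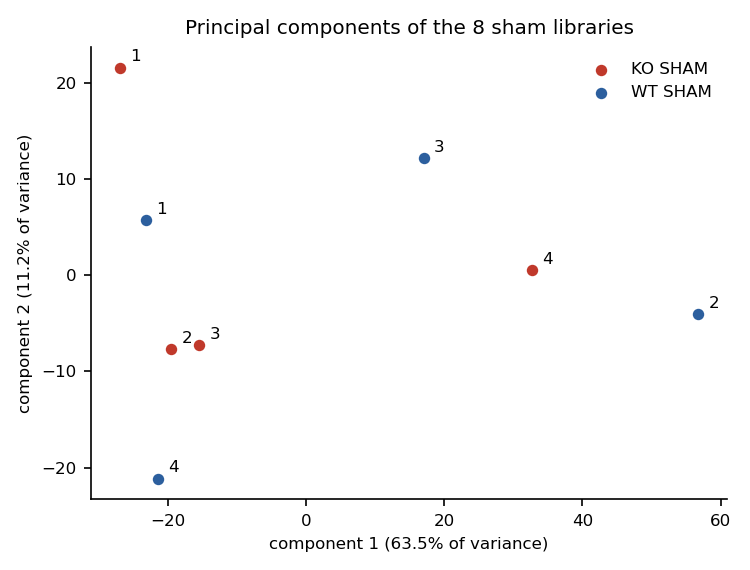
The first and second principal components of the 8 sham libraries (log2 CPM, no unit), with KO SHAM in red, WT SHAM in blue and the number of each library beside its point. KO SHAM 4, WT SHAM 2 and WT SHAM 3 lie on the right, from 17.01 to 56.75 on the first component, and the other 5 lie between -26.89 and -15.44.

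Esr1 was the 1 gene past the adjusted test. It had 19, 15, 10 and 21 counts in the KO SHAM libraries, against 120, 139, 109 and 91 counts in the WT SHAM libraries. In CPM these were 0.589, 0.576, 0.425 and 0.576 in KO SHAM, against 5.53, 4.07, 3.90 and 3.74 in WT SHAM. Every KO SHAM library lay far below every WT SHAM library, and none of the 4 was at 0. Esr1 averaged 0.541 ± 0.0780 CPM in KO SHAM and 4.31 ± 0.824 CPM in WT SHAM (SD, n = 4 each). Its log2 fold change was -2.97 (SE 0.24, approximate 95% interval -3.49 to -2.46), with an adjusted p of 3.74e-05 in edgeR's quasi-likelihood test with Benjamini-Hochberg adjustment. The files count reads per gene, so they do not show which part of the gene the remaining reads came from. Without the 3 libraries that stood apart the log2 fold change was -3.10.

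The same test called no other gene at an adjusted p below 0.05, so 1 of 13458 genes passed (0.00743%). The next lowest adjusted p was 0.804. At an unadjusted p below 0.05 there were 273 genes, where 672.9 would be expected if no gene differed and genes were independent. The count moved with single libraries. It was 1548 without KO SHAM 4, 570 without WT SHAM 1, 443 without WT SHAM 4 and 591 without the 3 libraries that stood apart, and the number of genes past the adjusted test was 1 in each of these fits. Of the 273 genes with all 8 libraries, 118 were higher in KO SHAM (0.877% of the genes tested) and 155 were lower (1.15%). All 4 KO SHAM libraries lay above all 4 WT SHAM libraries for 68 genes (0.505%), and below them for 101 genes (0.75%). In the banded ventricle Esr1 was again the only gene past the test, 1 of 13458 (0.00743%), with a log2 fold change of -3.34. It had 0.490, 0.343, 0.403 and 0.248 CPM in KO PAB, against 2.69, 4.04, 3.42 and 5.05 CPM in WT PAB.

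How much change the sham libraries leave room for can be read from the intervals. The approximate 95% interval of KO SHAM minus WT SHAM lay wholly within 2-fold in either direction for 10745 genes (79.8% of those tested) and within 1.5-fold for 8032 genes (59.7%). The median SE was 0.169 on the log2 scale. Fitted values beyond 2-fold were found for 223 genes, 41 higher and 182 lower in KO SHAM, and all but Esr1 missed the test. Without the 3 libraries that stood apart, 24 of the 41 and 29 of the 164 lower genes that had a value in that fit were still beyond 2-fold in the same direction.

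Genes named below for their p are the 10 with the smallest unadjusted p in each direction that averaged at least 1 CPM and whose KO SHAM and WT SHAM libraries did not overlap. All but Esr1 missed the adjusted test, so their values describe these libraries and are no calls. Their lack of overlap in sham was set by this rule and is no further result.

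**Figure D2:**
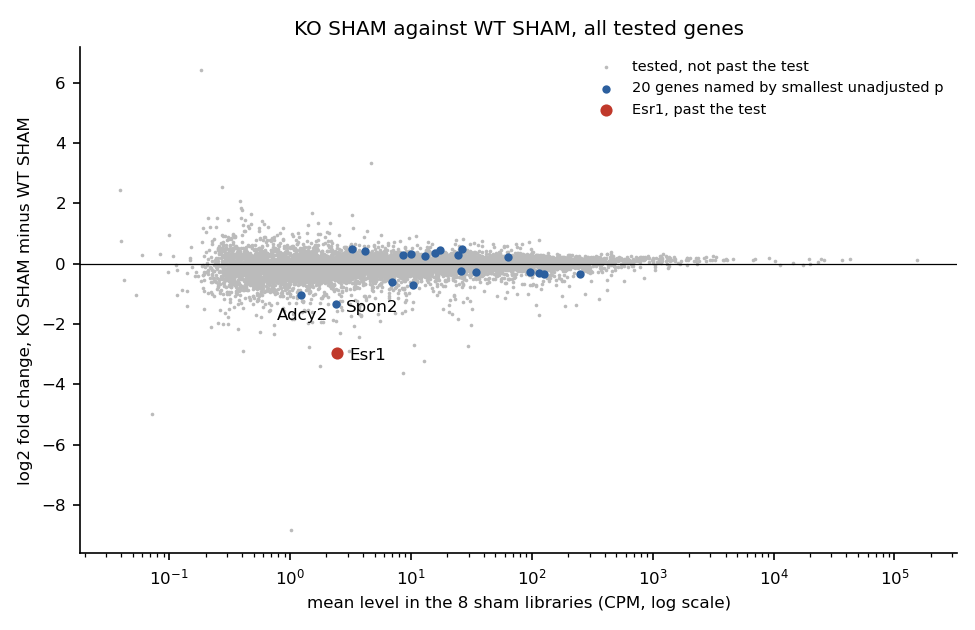
Log2 fold change of KO SHAM minus WT SHAM for each of the 13458 tested genes (vertical axis) against its mean level in the 8 sham libraries (CPM, log scale). Esr1 in red at -2.97 is the only gene past the test; blue points are the 20 genes with the smallest unadjusted p by the naming rule, of which Adcy2 at -1.03 and Spon2 at -1.32 are labelled.

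Other members of the receptor family did not pass the test. Of 22 nuclear steroid and estrogen-related receptors, 20 were tested, and Esr1 was the only one past the test. With all 8 libraries it was also the only one at an unadjusted p below 0.05 (edgeR). Without the 3 libraries that stood apart, 3 of the 20, Esr1 among them, were lower at that p and 0 higher, beside 2.47% of all genes lower. Esr2, which encodes estrogen receptor beta, had 0 counts in all 4 KO SHAM libraries and 0, 1, 0 and 0 counts in the WT SHAM libraries, and was not tested. Gper1, a membrane receptor that binds estrogen, had 0.925 ± 0.308 CPM in KO SHAM and 0.816 ± 0.275 CPM in WT SHAM (SD, n = 4 each), a log2 fold change of 0.19 with an interval of -0.46 to 0.83, or -0.17 without the 3 libraries. Esrra and Esrrg, orphan receptors that drive mitochondrial genes in heart muscle, had log2 fold changes of -0.14 (-0.55 to 0.26) and 0.17 (-0.050 to 0.39). Esrra had -0.42 without the 3 libraries. Pgr, the progesterone receptor and a classical target of estrogen, had 0, 0, 0 and 32 counts in KO SHAM and 0, 109, 18 and 0 counts in WT SHAM. The 3 libraries with Pgr counts were the 3 with adipocyte and mesothelial markers.

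Genes that answer to estrogen in breast or uterine cells had values of both signs, more of them negative. Of 32 such genes 30 were tested, none passed the test and none had an unadjusted p below 0.05. Their median log2 fold change was -0.045, against -0.016 over all genes tested, and 10 had a positive and 20 a negative value. Over all genes tested 6202 had a positive and 7255 a negative value. Greb1, an estrogen receptor cofactor and target, had 0.930, 1.73, 1.36 and 0.961 CPM in KO SHAM, against 1.38, 1.38, 0.967 and 0.658 CPM in WT SHAM. The groups overlapped, with a log2 fold change of 0.17 (-0.85 to 1.20), or 0.40 without the 3 libraries. Nrip1, a corepressor that estrogen induces, had 24.55 ± 3.35 CPM in KO SHAM and 24.76 ± 1.25 CPM in WT SHAM (SD, n = 4 each), with a log2 fold change of -0.011 (-0.22 to 0.20), or 0.024 without the 3 libraries. The unfolded protein response factor Xbp1 had 0.13 (-0.28 to 0.53), the receptor-binding cancer antigen gene Ebag9 had 0.071 (-0.11 to 0.26), and the cyclin Ccnd1 had -0.52 (-1.22 to 0.18). Xbp1 had 0.076 without the 3 libraries. Intervals lay within 2-fold for 18 of the 30, and those of the rest reached beyond it.

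The coregulators that the receptor works with were measured more tightly. Of 26 listed, 23 were tested with a median of 0.017, none passed the test, and 22 had intervals within 2-fold. The coactivator Ncoa1 had a log2 fold change of 0.059 (-0.094 to 0.21), or 0.097 without the 3 libraries. Fkbp5, a cochaperone of steroid receptors that glucocorticoids induce, was the only coregulator at an unadjusted p below 0.05 (unadjusted p = 0.0246, adjusted p = 0.996, edgeR). It had 66.7, 65.7, 31.7 and 28.3 CPM in KO SHAM, against 26.0, 23.9, 37.9 and 27.5 CPM in WT SHAM. High values in KO SHAM 1 and 2 stood out, with a log2 fold change of 0.74 for the groups, while KO SHAM 3 and 4 lay within the WT SHAM range. Fkbp5 and the further genes named below for an unadjusted p in a list were chosen after their values were seen.

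No gene of the BMP receptor and apelin pathways passed the test. Of 24 genes 20 were tested, none had an unadjusted p below 0.05, and the median was -0.072, or -0.020 without the 3 libraries. In that fit 21 were tested, with 2 lower and 0 higher at an unadjusted p below 0.05 (edgeR), beside 2.47% of all genes lower. Bmpr2, the type 2 BMP receptor mutated in heritable pulmonary hypertension, had 46.3, 62.8, 61.2 and 67.7 CPM in KO SHAM, against 61.4, 64.7, 63.1 and 53.9 CPM in WT SHAM. Its log2 fold change was -0.031 (-0.30 to 0.24), so a change of 1.5-fold in either direction lay outside the interval. The ligand Apln had 18.7 ± 3.07 CPM in KO SHAM and 18.15 ± 2.86 CPM in WT SHAM (SD, n = 4 each), a log2 fold change of 0.044 (-0.37 to 0.45). Its receptor Aplnr ranged over 1.33 to 11.2 CPM in KO SHAM and 2.19 to 22.5 CPM in WT SHAM, too widely to bound (-0.97, interval -2.51 to 0.57). Nos3, the endothelial nitric oxide synthase that estrogen is known to stimulate, had 21.7 ± 3.23 CPM in KO SHAM and 21.2 ± 3.56 CPM in WT SHAM (SD, n = 4 each), with 0.030 (-0.30 to 0.36). Leaving out the 3 libraries gave -0.017 for Bmpr2, -0.020 for Apln, -0.48 for Aplnr and -0.15 for Nos3.

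Load-responsive genes also did not pass the test. Of 22 hypertrophy stress genes tested out of 24, 11 had a positive and 11 a negative value. Nppa, the atrial natriuretic peptide that a stretched ventricle makes, had 1.46, 6.75, 6.97 and 7.41 CPM in KO SHAM, against 2.17, 10.1, 14.2 and 14.6 CPM in WT SHAM. Its log2 fold change of -0.87 had an interval of -2.62 to 0.88. In the banded ventricle it had 520, 326, 1017 and 1010 CPM in KO PAB, against 461.5, 42.3, 38.0 and 85.0 CPM in WT PAB, with WT PAB 1 inside the KO PAB range. There the Nppa value was 2.20 (unadjusted p = 0.0159), and the genotype by surgery interaction of 3.07 had an unadjusted p of 0.0175 and an adjusted p of 0.999 (edgeR). Nppb, which encodes brain natriuretic peptide, had -0.36 (-1.88 to 1.16), the fetal myosin Myh7 had 0.24 (-0.60 to 1.08), and skeletal actin Acta1 had 0.073 (-0.88 to 1.02). Nppb had -0.86, Myh7 0.61 and Acta1 0.25 without the 3 libraries.

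The contractile and calcium genes had narrower intervals. Of 18 sarcomere genes tested, 17 had intervals within 2-fold, with a median of 0.11. Myh6 had a log2 fold change of -0.058 (-0.57 to 0.45) and the troponin Tnnt2 had 0.15 (-0.25 to 0.56). Among 34 calcium handling and ion channel genes, 31 had intervals within 2-fold and none had an unadjusted p below 0.05. The calcium pump Atp2a2 had 0.076 (-0.29 to 0.44), the calcium release channel Ryr2 had 0.091 (-0.23 to 0.41), and phospholamban, the pump's inhibitor encoded by Pln, had 0.11 (-0.31 to 0.52). The median of the sarcomere genes was -0.041 without the 3 libraries, and the values were then -0.31 for Myh6, 0.013 for Tnnt2, -0.057 for Atp2a2, -0.048 for Ryr2 and -0.037 for Pln. Mef2c, a transcription factor of heart muscle, was the hypertrophy gene with the smallest p. It had 75.5, 68.7, 66.5 and 61.5 CPM in KO SHAM, against 59.8, 53.8, 61.0 and 57.3 CPM in WT SHAM. The groups did not overlap, but the difference was small at 0.23 (SE 0.070, unadjusted p = 0.00477, adjusted p = 0.996), and in the banded ventricle Mef2c had 0.025 (unadjusted p = 0.724).

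Most metabolic genes had small positive values, and none passed the test. Of 30 genes of the TCA cycle, ketone and branched-chain catabolism, 29 had a positive value with a median of 0.17, and all 30 intervals lay within 2-fold. The exception was Bckdha at -0.22, a subunit of the branched-chain ketoacid dehydrogenase, with -0.35 without the 3 libraries that stood apart. Hibch, an enzyme of valine breakdown, was the only one at an unadjusted p below 0.05 (0.27, unadjusted p = 0.0304, adjusted p = 0.996, edgeR). Nuclear oxidative phosphorylation genes had a median of 0.091 over 46 genes, and fatty acid genes had 0.097 over 38. Without the 3 libraries that stood apart these medians were 0.041, -0.034 and -0.023. Citrate synthase (Cs) had 663, 714, 699 and 545 CPM in KO SHAM, against 679, 426, 585 and 733 CPM in WT SHAM, with the lowest value of KO SHAM in replicate 4 and the lowest 2 of WT SHAM in replicates 2 and 3. Ppargc1a, the coactivator that drives mitochondrial genes, had 0.10 (-0.33 to 0.53). The log2 fold change of Cs was 0.11 with all 8 libraries and -0.024 without the 3, and that of Ppargc1a was -0.018 without them.

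Most matrix and stromal genes had negative values, and their medians moved with the libraries that stood apart. Fibrillar matrix genes had a median of -0.49 over 40 genes, 36 of them negative, and fibroblast markers had -0.43 over 17. None passed the test or had an unadjusted p below 0.05. Col1a1, a chain of the main fibrillar collagen, had 32.8, 59.2, 80.8 and 273 CPM in KO SHAM, against 55.5, 288, 173 and 109 CPM in WT SHAM. Postn, a matrix protein of activated fibroblasts, had 6.11, 4.80, 3.91 and 23.6 CPM in KO SHAM, against 5.85, 73.2, 23.8 and 5.51 CPM in WT SHAM. For both genes the 3 libraries with adipocyte and mesothelial markers were the 3 highest of the 8. Without those libraries the medians were 0.080 for fibrillar matrix and 0.17 for fibroblast markers, and the log2 fold change of Postn was -0.19, against -1.49 with all 8. Col1a1 had -0.51 without them and -0.49 with all 8.

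Markers of several other cell types moved with the same libraries. The adipocyte list had a median of -1.28 over 15 tested genes of 18, and 0.061 over the 11 that could be tested without the 3 libraries. Its summed level was 1326 to 1674 CPM in KO SHAM and 1154 to 1718 CPM in WT SHAM, since genes that heart muscle or its vessels also express, such as Acsl1 and Fabp4, make up most of it. The mesothelial sum was 62.71 to 211.8 CPM in KO SHAM and 43.00 to 261.8 CPM in WT SHAM, with medians of -0.44 with all libraries and -0.048 without the 3. Smooth muscle markers had -0.39 and -0.021, and macrophage markers -0.28 and 0.062. Of 42 lists, 12 had a median beyond 0.2 in either direction with all 8 libraries and 4 without the 3, and the median of 20 lists changed sign. Not all moved towards 0. Erythroid markers had -0.45 with all 8 and -0.73 without the 3. In that fit 3 of 8 were lower and 0 higher at an unadjusted p below 0.05 (edgeR), beside 2.47% of all genes lower. Mast cell and neutrophil markers changed little, with -0.36 and -0.33. In the banded ventricle the erythroid median was -0.031 and that of mast cell and neutrophil markers 1.007. Immediate early genes, such as Fos and Jun, had 0.096 with all 8, -0.46 without the 3 and -0.59 in the banded ventricle. Their summed level was lowest in WT SHAM 2, at 379.8 CPM. The part of these cell types and libraries in the results was not tested beyond these fits.

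**Figure D3:**
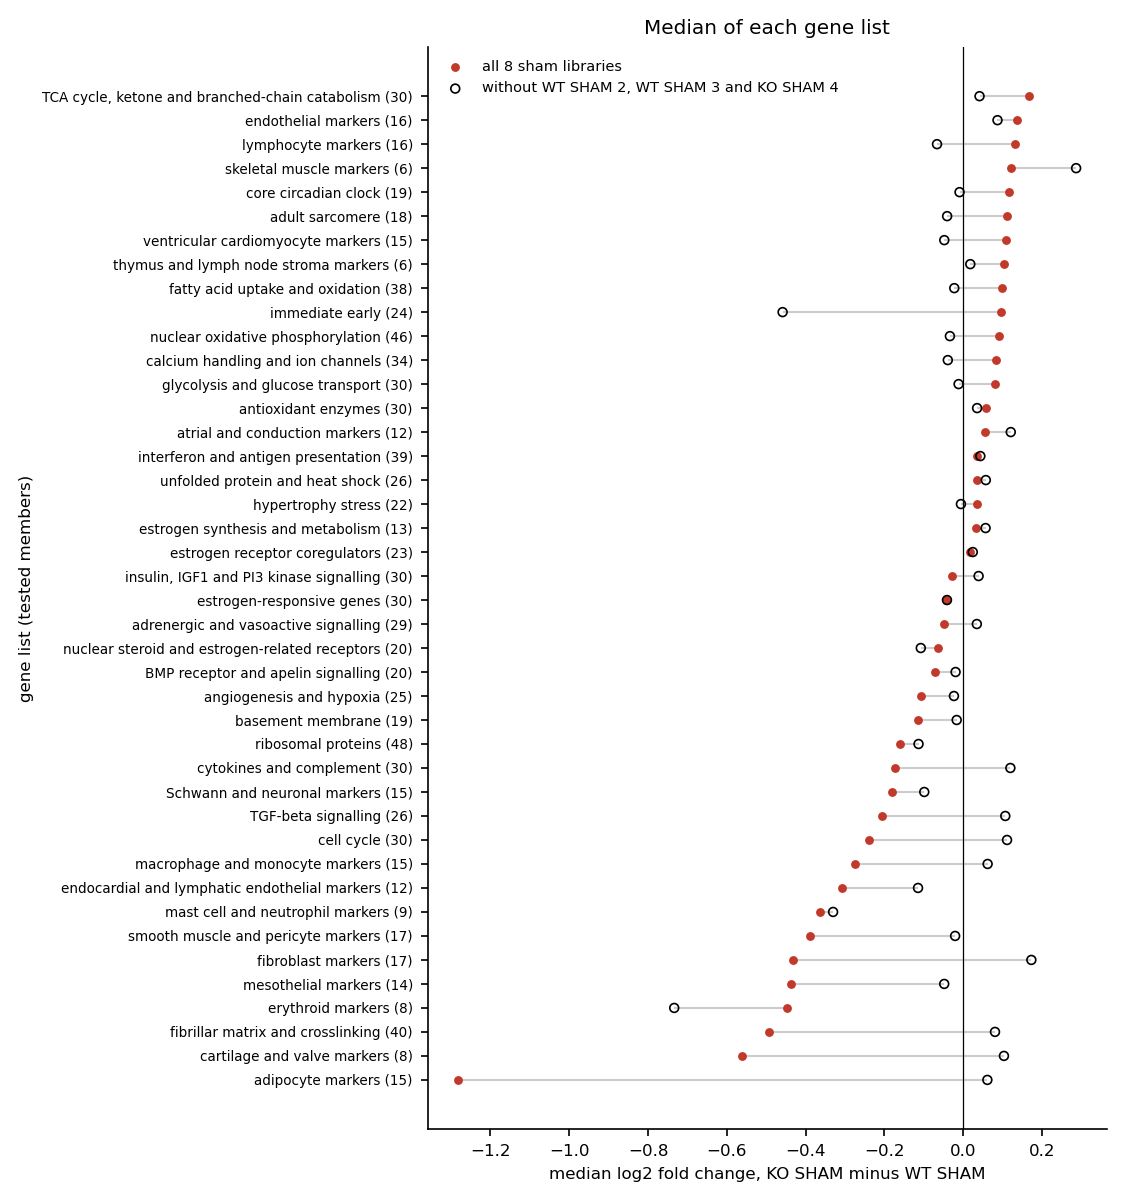
Median log2 fold change of KO SHAM minus WT SHAM over the tested members of each of 42 gene lists, with the number of tested members in parentheses. Red points use all 8 sham libraries and open points leave out KO SHAM 4, WT SHAM 2 and WT SHAM 3; adipocyte markers are at 0.061 without the 3, against -1.28 with all 8, while estrogen-responsive genes stay within 0.05 of 0 in both.

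Ribosomal proteins were the list with the most members at a small unadjusted p. These proteins build the cytosolic ribosome and are made in balanced amounts. None passed the adjusted test, but 47 of 48 tested genes had a negative value, with a median of -0.16 against -0.016 over all genes. At an unadjusted p below 0.05, 17 were lower and 0 higher in KO SHAM, beside 1.15% of all genes lower. The count was 11 without KO SHAM 2 (0.828% of all genes lower in that fit), 24 without KO SHAM 1 (1.03%) and 0 when tested against a minimum fold of 1.5. In 12 of the 48 all KO SHAM libraries lay below all WT SHAM libraries, beside 0.75% of all genes. Members of a list come from the same libraries and are not independent. Summed over the list, the libraries had 7415, 6579, 6561 and 6288 CPM in KO SHAM, against 7597, 7973, 7235 and 7379 CPM in WT SHAM. KO SHAM 1 lay within the WT SHAM range and the other 3 KO SHAM libraries lay below it. All 48 intervals lay within 2-fold and 42 within 1.5-fold.

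Rps28, a protein of the small subunit, had 31.5, 30.4, 31.6 and 30.5 CPM in KO SHAM, against 39.3, 39.6, 33.9 and 37.5 CPM in WT SHAM. The groups did not overlap, with a log2 fold change of -0.28 (SE 0.068, unadjusted p = 0.000943, adjusted p = 0.996). Rps18 had 232.5, 220.8, 222.9 and 206.6 CPM in KO SHAM, against 252.4, 312.5, 260.4 and 286.3 CPM in WT SHAM, with a log2 fold change of -0.33. Rpl12 of the large subunit had 88.1 ± 3.19 CPM in KO SHAM and 105.7 ± 3.84 CPM in WT SHAM (SD, n = 4 each), with -0.26 and again no overlap between the groups. Rps9 was the only member with a positive value, 0.12 (-0.095 to 0.33). Without the 3 libraries the median of the list was -0.11, against 0.014 over all genes, with 40 of 48 negative and 13 lower at an unadjusted p below 0.05, beside 2.47% of all genes in that fit. In the banded ventricle the median was -0.052 and 2 members were lower at an unadjusted p below 0.05, beside 2.27% of all genes. The summed level there was 6567 ± 271 CPM in KO PAB and 6765 ± 421 CPM in WT PAB, beside 6711 ± 488 CPM in KO SHAM and 7546 ± 321 CPM in WT SHAM (SD, n = 4 each). The genotype by surgery interaction passed the adjusted test for no ribosomal protein gene and for no other gene of the 13458 (237 at an unadjusted p below 0.05, edgeR).

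**Figure D4:**
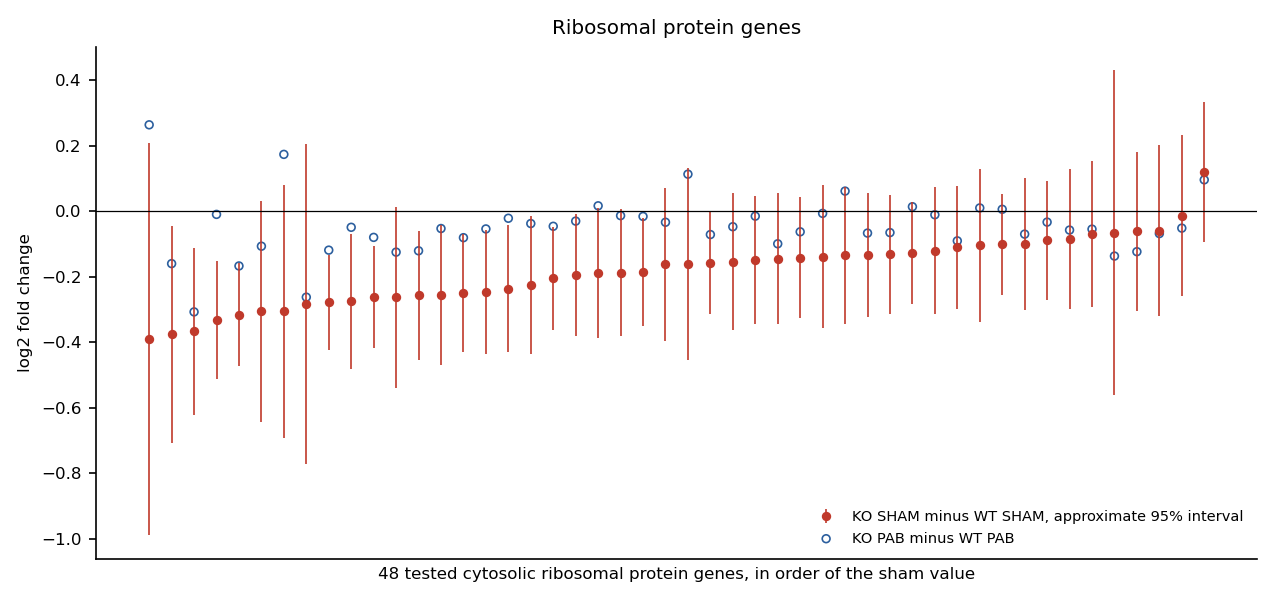
Log2 fold change of each of the 48 tested ribosomal protein genes in KO SHAM minus WT SHAM (red points, bars for approximate 95% intervals) and KO PAB minus WT PAB (open blue points), ordered by the sham value. In sham 47 lie below 0 with a median of -0.16, and in the banded ventricle the median is -0.052.

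Ribosomal protein messages are known for a run of pyrimidines at the start of the transcript, through which their translation is controlled together. The stretch from 15 bases before to 15 bases after the annotated start is shown for 3 of the named ribosomal genes. The sequences are from RefSeq (GRCr8), 5′ to 3′ on the gene's strand, with the longest run of C and T that touches this stretch in capitals.
Rps28 (chr7:15311319-15311348, minus strand): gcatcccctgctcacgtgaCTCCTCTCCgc
Rps18 (chr20:4933730-4933759, plus strand): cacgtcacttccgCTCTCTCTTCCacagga
Rpl12 (chr3:36661925-36661954, plus strand): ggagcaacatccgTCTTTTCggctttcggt
The runs are 9, 11 and 7 bases long, and that of Rpl12 is shorter than the 8 bases counted next. The run of Rps28 begins at position 5 after the annotated start, and those of Rps18 and Rpl12 at position -2. A run of at least 8 bases, each C or T, on the gene's strand was found at this place in 28 of the 36 tested ribosomal genes with a sequence (77.8%), in 10 of the 14 with a sequence and an unadjusted p below 0.05 (71.4%), and in 17.1% of all 33469 promoter windows.

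Outside that list, the genes lower in KO SHAM with the smallest unadjusted p were led by Adcy2, an adenylyl cyclase that makes cyclic AMP. It had 0.744, 0.921, 0.892 and 0.714 CPM in KO SHAM, against 1.57, 1.84, 1.90 and 1.36 CPM in WT SHAM. The groups did not overlap, and the log2 fold change was -1.03 (SE 0.20, interval -1.46 to -0.60, unadjusted p = 0.00012), but the adjusted p was 0.804. In the banded ventricle Adcy2 had 0.791, 0.800, 1.10 and 1.21 CPM in KO PAB, against 1.65, 1.91, 1.53 and 1.74 CPM in WT PAB. These groups did not overlap either, with -0.81 (unadjusted p = 0.00103, adjusted p = 0.9995). Adcy2 lies on the chromosome of Esr1, chromosome 1, and is listed 79 entries before it in the order of the GRCr8 annotation.

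Spon2, a secreted matrix protein, had 1.15, 1.80, 1.79 and 0.714 CPM in KO SHAM, against 3.60, 3.98, 2.29 and 3.70 CPM in WT SHAM. No libraries overlapped, and the log2 fold change was -1.32 (interval -2.16 to -0.49, unadjusted p = 0.00407, adjusted p = 0.996). It was -1.54 in the banded ventricle (unadjusted p = 0.00181), where KO PAB had 0.904, 0.495, 0.916 and 0.603 CPM and WT PAB had 0.807, 2.13, 1.88 and 3.70 CPM, with WT PAB 1 inside the KO PAB range. Igfbp3, which binds insulin-like growth factors in blood and tissue, had 34.7, 56.0, 31.8 and 29.2 CPM in KO SHAM, against 103, 107, 69.2 and 51.5 CPM in WT SHAM. KO SHAM 2 exceeded WT SHAM 4, and the value was -1.13 (unadjusted p = 0.0166), with -1.001 in the banded ventricle (unadjusted p = 0.0307). Kdelr2, which returns proteins to the endoplasmic reticulum, had -0.26 in sham and -0.10 in the banded ventricle.

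The 10 genes named for higher values in KO SHAM differed by less than 1.5-fold with all 8 libraries. Hsd11b1, the enzyme that makes active glucocorticoid inside cells, had 33.9, 29.3, 27.6 and 33.7 CPM in KO SHAM, against 21.9, 26.4, 25.6 and 13.8 CPM in WT SHAM. The groups did not overlap, with a log2 fold change of 0.50 (SE 0.18, unadjusted p = 0.0117, adjusted p = 0.996). Hsd11b1 was also without overlap in the banded ventricle, with 28.2, 30.2, 35.9 and 22.2 CPM in KO PAB against 18.9, 21.4, 17.5 and 18.2 CPM in WT PAB (0.61, unadjusted p = 0.00331). Its sham value was 0.77 without the 3 libraries. Asah2, a ceramidase of the cell surface, had 17.9 ± 1.37 CPM in KO SHAM and 13.9 ± 1.21 CPM in WT SHAM (SD, n = 4 each), a value of 0.36 in sham and 0.10 in the banded ventricle. Entpd2, which breaks down extracellular ATP, had 0.47 in sham and 0.19 in the banded ventricle. The kinase gene Prkch had 0.30 in sham and 0.097 in the banded ventricle, and the semaphorin Sema6d had 0.27 and 0.0049. Txlng had 0.42 and -0.099, Slc35f1 0.49 and -0.090, Hspa12a 0.33 and -0.022, and Chn1 0.26 and 0.098.

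**Figure D5:**
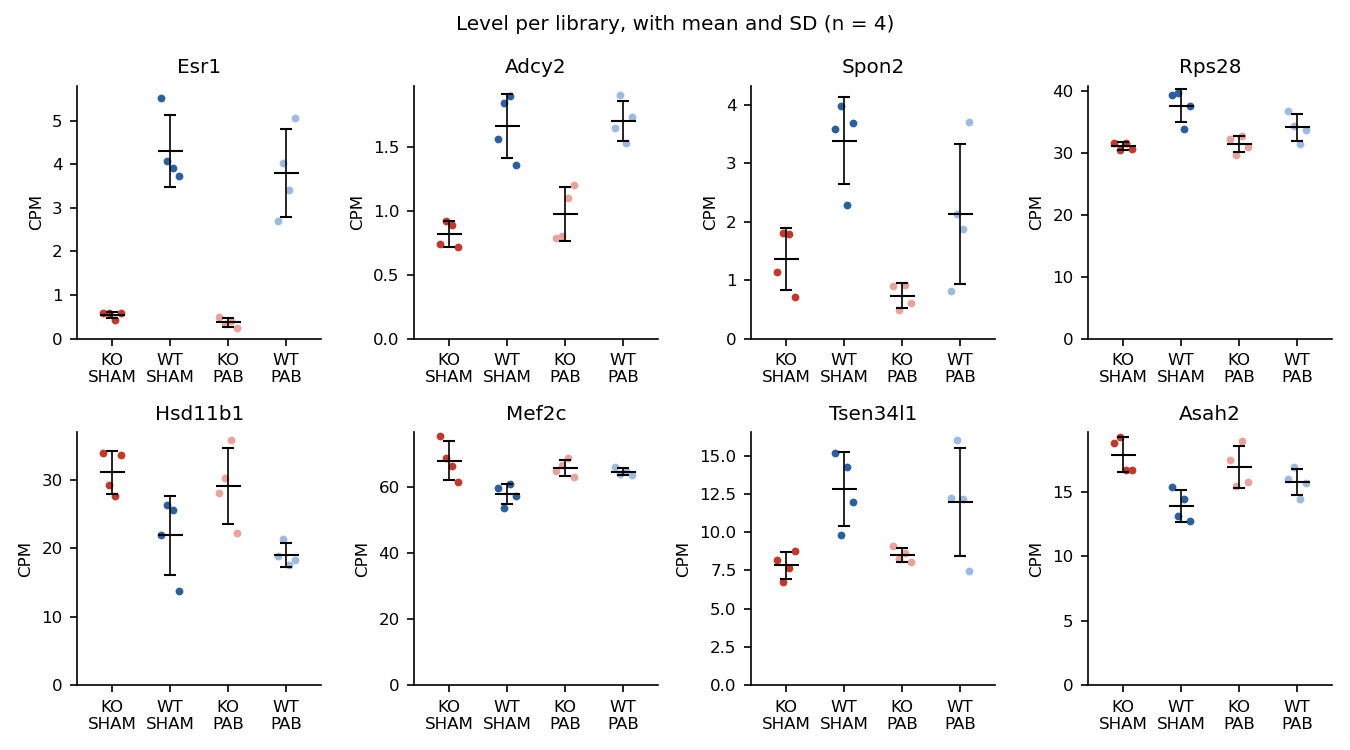
CPM per library of 8 genes in KO SHAM, WT SHAM, KO PAB and WT PAB, with the mean and SD of each group (n = 4). Esr1, Adcy2 and Hsd11b1 separate KO from WT without overlap in both surgeries, while Mef2c and Asah2 do so in sham and overlap in the banded ventricle. The lack of overlap in sham was asked for by the naming rule.

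In the banded libraries, whose group means had no part in naming them, 16 of these 20 genes had the same sign in KO PAB minus WT PAB, 7 of the 10 higher and 9 of the 10 lower. Over all 13458 genes the sign was the same for 7150 (53.1%), and over the 273 genes at an unadjusted p below 0.05 in sham it was the same for 177 (64.8%). 5 of the 20 also had an unadjusted p below 0.05 in the banded ventricle with the same sign, beside 436 of all genes (3.24%) and 26 of the 273: 1 of the higher, Hsd11b1, and 4 of the lower, Adcy2, Tsen34l1 and Spon2 among them. None passed the adjusted test there. Since both comparisons use the same estimate of each gene's spread, a small p in one is not independent of a small p in the other.

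Tsen34l1 and Tsen34 are copies of a gene for a subunit of the tRNA splicing endonuclease, and reads may be split between them, so both values are uncertain. Tsen34l1 had 8.15, 6.72, 7.69 and 8.76 CPM in KO SHAM, against 15.2, 9.81, 14.3 and 12.0 CPM in WT SHAM, and Tsen34 had 23.7, 22.9, 28.8 and 27.1 CPM in KO SHAM, against 13.3, 20.3, 14.8 and 24.3 CPM in WT SHAM. Their log2 fold changes were of opposite sign, -0.71 for Tsen34l1 and 0.49 for Tsen34, and likewise in the banded ventricle at -0.49 and 0.50. Added together the pair had 33.4 ± 3.28 CPM in KO SHAM and 31.0 ± 3.59 CPM in WT SHAM (SD, n = 4 each). Rps18l1 (-0.60) and Rps18 (-0.33) are a similar pair but of the same sign. Rps18l1 had the smallest unadjusted p of the genotype by surgery interaction (0.76, unadjusted p = 0.00126, adjusted p = 0.999), with 0.16 in the banded ventricle. The pair summed to 226 ± 10.3 CPM in KO SHAM and 286 ± 26.9 CPM in WT SHAM (SD, n = 4 each).

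No gene beside Esr1 passed the test. Of the 10 entries on each side in the GRCr8 order, 7 genes were tested and none had an unadjusted p below 0.05 with all 8 libraries. Before Esr1 lie Akap12, an anchor of protein kinase A (0.28), Zbtb2 (0.017), the mitochondrial gene Rmnd1 (0.24, unadjusted p = 0.0594) and Armt1 (0.17). After it lie Syne1, a nuclear envelope protein (-0.19), Myct1 (-0.26) and the mitotic inhibitor Fbxo5 (-0.40). In the banded ventricle Syne1 had -0.33 (unadjusted p = 0.0169, adjusted p = 0.9995, edgeR), and its KO PAB and WT PAB libraries did not overlap. Myct1 had -0.49 there (unadjusted p = 0.0626). The others had 0.072 for Akap12, -0.027 for Zbtb2, 0.086 for Rmnd1, 0.058 for Armt1 and -0.096 for Fbxo5. In the fit without the 3 libraries Akap12 had 0.70 (unadjusted p = 0.0365), Zbtb2 -0.017, Armt1 0.068, Myct1 -0.51 and Fbxo5 0.13. Over 100 entries on each side 46 entries matched a tested gene, Zfp972 and Zfp874b the same one. Log2 fold changes ran from -1.03 to 0.54, with none past the test and Adcy2 alone at an unadjusted p below 0.05.

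Promoters of the named genes were searched for the letters of the estrogen response element, because estrogen receptor alpha binds it. The full element GGTCANNNTGACC, which reads the same on both strands, was in 9 of 33469 RefSeq windows of 300 bases, in 0 of the 11 named genes with a window, and in 0 of 19 estrogen-responsive genes. A half-site, GGTCA on either strand (TGACC when read on the other), was in 4 of the 11 (36.4%), in 9 of the 19 (47.4%) and in 40.5% of all windows; the half-site lies within the full element. The 4 half-sites are shown in capitals with the bases around them, from RefSeq (GRCr8) on the gene's strand.
Asah2 (chr1:239352654-239352683, minus strand): gtaagattgaaaTGACCttcagtctaacag
Txlng (chrX:35495797-35495826, plus strand): ccaacctcctccGGTCAcgtggaaagactc
Sema6d (chr3:132337215-132337244, plus strand): gggaggtctggcTGACCggttccagctggc
Rpl12 (chr3:36661779-36661808, plus strand): gagctcacccacTGACCaagcgctgcagtc
Of these genes Asah2, Txlng and Sema6d were the higher and Rpl12 the lower in KO SHAM, all without passing the adjusted test. A match is a description of the letters in this window.

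Across all 42 lists, 886 different genes were tested, and Esr1 was the only one past the test. At an unadjusted p below 0.05 there were 5 higher and 20 lower, beside 0.877% higher and 1.15% lower of all genes, and 17 of the 20 were ribosomal proteins. Beyond those already named, Tpsb2, a tryptase of mast cells, had 5.02, 3.19, 3.61 and 1.65 CPM in KO SHAM, against 1.29, 1.58, 2.47 and 1.56 CPM in WT SHAM. KO SHAM 4 lay inside the WT SHAM range, and the value was 0.96 (unadjusted p = 0.0103), or 1.47 without the 3 libraries. The mast cell and neutrophil list it comes from had negative values for 7 of 9 tested members, with a median of -0.36. The antigen presentation gene RT1-CE10 had 0.59 (unadjusted p = 0.0478), or 0.39 without the 3 libraries. Hba-a2, a hemoglobin chain, had 129.4 ± 24.2 CPM in KO SHAM and 188.6 ± 57.6 CPM in WT SHAM (SD, n = 4 each), a value of -0.54 (unadjusted p = 0.0485), or -0.84 without the 3 libraries, and its near-identical copy Hba-a1 had the same value with all 8 libraries to 2 decimals (unadjusted p = 0.0567).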

How the data were processed

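The authors deposited whole-number expected counts per gene symbol for each library; STAR 2.5.3a, RSEM 1.3.0 and Rnor_6.0 are named, per the submitters' processing notes. The annotation, the strand setting and the rounding are not given in the sources used here. Of 32754 entries, 13748 were 0 in every library. edgeR 4.0.16 (R 4.3.3) scaled all 16 libraries by TMM, kept 13458 genes with filterByExpr (min.count 10) and fitted a robust quasi-likelihood model to 4 group means. SE is the log2 fold change over the root of F, and intervals use the model's degrees of freedom. CPM are counts per 1000000 of the scaled total. The procedure was tested on simulated data.

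Members, lists and tests were chosen with earlier results of these data known. Named genes are those past the test, the 10 smallest p in each direction (at least 1 CPM, groups without overlap, no placeholder symbol), tested genes within 10 entries of Esr1 and a set of 28 genes, of which 27 were in the files. Deviations of same-numbered KO SHAM and WT SHAM libraries correlated at 0.562 for number 1 and at -0.332, -0.294 and -0.621 for the others, so the numbers were not taken to pair the libraries. Pairs of replicates differed by 22.5 to 163 times counting noise (chi-square per degree of freedom). Alternatives used RLE, DESeq2 1.42.0, limma 3.58.1 and other filters, designs and libraries. A few genes that the rule picks are not reported here by name.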

Additional observations from a re-analysis of the deposited data

Results flagged for a closer look

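In groups of 4 libraries, 9 of 106 group values tested had 1 library far from the other 3, where chance flags about 1 in 20. All 9 were in KO SHAM. The rule looks for 1 far library, so 2 far libraries in the same group can hide each other. Adipoq had 45.63 CPM in WT SHAM 2 and 28.12 CPM in WT SHAM 3, against 0.04609 and 0 CPM in WT SHAM 1 and 4, and was not flagged there. In KO SHAM 4, Postn had 23.58 CPM (3.909 to 6.108 in the other 3 KO SHAM libraries), Adipoq 11.09 CPM (0 to 0.04249), Msln 42.51 CPM (0.8059 to 7.904), Myh11 502.7 CPM (60.83 to 83.2) and Pgr 0.8783 CPM (0 in each of the other 3). In KO SHAM 1, Nppa had 1.457 CPM (6.754 to 7.411 in the other 3 KO SHAM libraries), Myct1 3.689 CPM (5.987 to 6.368) and Zbtb2 4.96 CPM (5.325 to 5.397). In KO SHAM 3, Esr1 had 0.4249 CPM, from 10 counts, while the other 3 KO SHAM libraries had 0.5756 to 0.5891 CPM.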

How the results depend on the processing

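Esr1 was the only gene past the test under each of the 20 alternatives, with log2 fold changes of -3.10 to -2.83 and adjusted p of 2.4e-21 (DESeq2) to 0.00371 (only the 8 sham libraries). With the replicate number as a block the count was also 1, with an adjusted p of 0.000976 for Esr1. The 20 genes named by smallest p passed in none of the alternatives. They kept their sign in sham under each, but their naming asked for groups without overlap in these same libraries. A kept sign was therefore all but fixed in advance. The ribosomal median stayed between -0.11 and -0.215; without KO SHAM 4, 961 genes (7.1%) were lower at an unadjusted p below 0.05. Against 273 genes in all at that p, limma-voom quality weights gave 723, the 8 sham libraries alone 164 and a minimum fold of 1.5 gave 29. Leaving out each sham library in turn, the Esr1 value ranged over -3.03 to -2.83 and the difference in mitochondrial share over -0.489 to 2.57 percentage points, the lowest without KO SHAM 2; the cause was not tested.

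Values of genes that were not past the test changed sign as follows. Without the 3 libraries they were Zbtb2 -0.017, Fbxo5 0.13, Gper1 -0.17, Apln -0.020, Nos3 -0.15, Tgfb2 0.24, Ppargc1a -0.018, Igf1 0.14, Adipoq 0.15 and Myh11 0.052. With a covariate for adipocyte and mesothelial genes they were Bmpr2 0.029, Apln -0.087, Tgfb2 0.076, Igf1 0.30, Adipoq 0.91 and Msln 0.56. With limma-voom quality weights they were Akap12 -0.027, Myct1 0.050, Fbxo5 0.031, Nppb 0.53 and Aplnr 0.37. With the replicate block they were Nppb 0.15 and, in the banded ventricle, Sema6d -0.00077. Leaving out each library in turn, ranges crossed 0 for Zbtb2 (-0.064 to 0.084), Fbxo5 (-0.64 to 0.17), Greb1 (-0.024 to 0.31), Nppb (-0.97 to 0.76), Myh6 (-0.21 to 0.10), Acta1 (-0.11 to 0.34), Bmpr2 (-0.10 to 0.072), Apln (-0.049 to 0.14), Nos3 (-0.077 to 0.14), Ppargc1a (-0.033 to 0.22), Ppara (-0.20 to 0.056), Igf1 (-0.61 to 0.33), Msln (-2.39 to 0.49) and Myh11 (-2.33 to 0.33). Esr2, with at most 1 count in a sham library, could not be tested.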

Other observations

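Omd, which encodes the small matrix proteoglycan osteomodulin, had the most negative fitted value of the sham comparison and was chosen after its values were seen. It had 0 counts in all 4 KO SHAM libraries, against 0, 117, 93 and 33 counts in WT SHAM (unadjusted p = 0.0034, adjusted p = 0.996, edgeR). In the banded ventricle the pattern was the other way round, with 0, 9, 0 and 12 counts in KO PAB and 0 in all 4 WT PAB libraries. No fold is given. Irf4, a transcription factor of lymphocytes and macrophages, had 5, 6, 4 and 23 counts in KO SHAM, against 3, 37, 321 and 4 counts in WT SHAM. Its log2 fold change was -3.39 with all 8 libraries and 0.28 without the 3 that stood apart. Hspa1a, an inducible heat shock protein, had 0 counts in all 4 KO SHAM libraries, against 0, 0, 0 and 14 counts in WT SHAM, so WT SHAM 4 held all of its sham counts.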
